A study of Mus musculus with 32 samples.

Results

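Plasma cells were compared with dark zone germinal centre B cells from the spleens of mice with activated PIK3CD. The comparison rests on the 8 libraries whose titles and count columns name aPIK3CD plasma cells (PC, n = 4) and aPIK3CD dark zone B cells (DZ, n = 4), out of 32 libraries in the series. Each library was made from 500 sorted cells of a C57BL/6 mouse aged 12 weeks, taken 14 days after intraperitoneal NP-CGG in alum, a hapten-protein immunogen in adjuvant. The aPIK3CD mice carry an AID-cre allele together with the activated PIK3CD allele, and the WT mice carry AID-cre alone, so both genotypes carry the Cre allele. The genotype field of PC replicate 1 and DZ replicate 1 reads AID-cre WT although their titles read aPIK3CD; the titles and column names were followed, and the results were also computed without these libraries. WT plasma cells (n = 4) and WT dark zone cells (n = 3) were used for a single comparison at the end, and the third WT dark zone library, with 25797 counts, was left out of it. No source used here names the sorting markers, and nothing states that libraries came from separate mice or that a shared replicate number means a shared mouse; p-values therefore measure the spread between libraries, part of which may be technical.

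PIK3CD encodes p110delta, the catalytic subunit of the class I phosphoinositide 3-kinase used most by lymphocytes; it acts below the B cell receptor, and its product recruits AKT, which keeps FOXO1 out of the nucleus. In the germinal centre, dark zone B cells divide and mutate their antibody genes, while light zone B cells compete for antigen and T cell help. Cells that leave as plasma cells stop dividing, lose the B cell programme held by PAX5, BCL6 and BACH2, and under IRF4, BLIMP1 (Prdm1) and XBP1 build a large endoplasmic reticulum (ER) that folds and exports antibody.

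Total counts were 788999, 652722, 654790 and 737303 in the PC libraries, against 1941224, 1154809, 1410899 and 1564240 in the DZ libraries. Immunoglobulin genes took 7.45% to 9.05% of the counts in PC and 0.864% to 0.993% in DZ. Libraries of 1 population resembled each other far more than those of the other (Pearson's r of log2 CPM across the genes tested was at least 0.915 within PC and 0.907 within DZ, and at most 0.445 between them). Levels are given in CPM, counts scaled to the TMM-adjusted library size, a share of each library's RNA, so that fewer cells of a type and less RNA per cell cannot be told apart. Tests are edgeR's quasi-likelihood F test with Benjamini-Hochberg adjusted p-values over all genes tested, and a gene passed at an adjusted p below 0.05. A value in brackets after a gene, where not named otherwise, is its log2 fold change of PC over DZ.

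The labels were first set against marker genes. Of all genes tested, 30.6% were higher in PC and 31% lower. In the plasma cell list, 7 of 7 markers were higher in PC, and the list summed to 11750 to 13690 CPM in PC against 1338 to 1683 CPM in DZ. In the germinal centre B cell list 8 of 8 markers were lower in PC, with sums of 106 to 135 CPM in PC and 2523 to 3000 CPM in DZ. Of the 6 dark zone markers 5 were lower in PC, and the exception was the chemokine receptor Cxcr4. Pik3cd itself (ENSMUSG00000039936) had 57.8, 61.3, 100.3 and 72.8 CPM in PC, against 169, 229, 143 and 226 CPM in DZ. All 4 PC libraries lay under all 4 DZ libraries (log2 fold change -1.40, SE 0.22, adjusted p = 7.39e-05); these counts do not separate the activated allele from the wild-type one.

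Of 9289 genes tested, 5723 passed (61.6%), 2839 of them higher in PC (30.6%) and 2884 lower in PC (31%). The change was over 2-fold in 2052 of the higher genes and 2068 of the lower genes, and over 8-fold in 593 and 506. The median log2 fold change over all genes tested was -0.06. With so large a share of genes called, a passing gene is common here, and the sizes and the make-up of the gene groups carry the description. Counts of list members below are to be read against these shares of all genes, 30.6% higher and 31% lower. The 4 PC and the 4 DZ values did not overlap in 57.0% of the genes tested.

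The largest rises in PC were in genes that DZ cells hardly showed. Tnfrsf17, which encodes the plasma cell survival receptor BCMA, had 487, 519, 476 and 529 CPM in PC and no count in any DZ library, at least 1136-fold higher against a floor of 3 counts over the DZ group. Fut1, a fucosyltransferase that makes the H antigen, had 208, 222, 251 and 293 CPM in PC and no count in DZ, at least 549-fold higher. The prolactin receptor gene Prlr had 209.6, 213, 231 and 150.4 CPM in PC and no count in DZ, at least 452-fold higher. Hid1 (at least 384-fold), Oosp2 (at least 200-fold), the secreted glutathione peroxidase Gpx3 (at least 189-fold), Upb1, an enzyme of pyrimidine breakdown (at least 175-fold), and Thnsl2 (at least 172-fold) were likewise without a count in DZ. Sdc1, which encodes the plasma cell surface proteoglycan CD138, had 658, 714, 836 and 698 CPM in PC, against 0.459, 0, 0 and 2.83 CPM in DZ (log2 fold change 9.52, SE 0.37, adjusted p = 1.33e-10; 11.16 without DZ replicate 4). Tmem176a (log2 fold change 9.91, and 11.04 without DZ replicate 4), the COPI coat gene Copz2 (1 count in DZ, ratio 1410.5 with a 95% counting interval of 252 to 55820) and Fndc3b (2 counts in DZ, ratio 1079, interval 298 to 8929) complete the 12 largest by log2 fold change.

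The mirror group was without counts in PC. Mybl1, a transcription factor of germinal centre centroblasts, had no count in any PC library, against 235, 348, 265 and 253 CPM in DZ, at least 218-fold lower in PC. Ffar1, a fatty acid receptor, was at least 94.1-fold lower; the mitotic kinesins Kif18b and Kif14 were at least 75.0-fold and 41.0-fold lower. Ankle1 (at least 60.9-fold), the chemokine scavenger Ackr4 (at least 45.2-fold), the end-joining DNA polymerase gene Polq (at least 41.0-fold), Rflna (at least 37.3-fold) and the bicarbonate transporter gene Slc4a8 (at least 37.0-fold) also had no count in PC. Cd22, an inhibitory B cell coreceptor, had 0, 1.80, 1.79 and 0 CPM in PC against 395, 563, 490.3 and 572 CPM in DZ (2 counts in PC, ratio 603, interval 167 to 4978), and Parp8 had 1 count in PC (ratio 653, interval 117 to 25811). Over all genes, 35 genes called higher had no count in DZ and 47 called lower had none in PC.

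Other genes stood out by the smallest p rather than the largest fold. Pon3, a lactonase of the paraoxonase family, averaged 1362 ± 27.5 CPM in PC and 49.9 ± 10.7 CPM in DZ (SD, n = 4 each; log2 fold change 4.77, SE 0.15, adjusted p = 5.84e-11). Prg2, which encodes an eosinophil granule protein that mouse plasma cells also transcribe, had 1122, 975, 1024 and 1111 CPM in PC, against 7.80, 3.91, 7.70 and 2.27 CPM in DZ. The protease inhibitor gene Spint2 (log2 fold change 3.72) and Itm2b (3.29) were higher in PC with no overlap. On the falling side, the chromatin protein gene Dek had 8.67, 18.0, 8.95 and 14.2 CPM in PC, against 507, 596, 609 and 431 CPM in DZ. Lrmp, a germinal centre marker (log2 fold change -3.71), and Gcsam, a germinal centre signalling adaptor (-8.04), also separated without overlap.

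Among the 40 tested members of the plasma cell list, 37 were higher in PC and 2 lower, with a median log2 fold change of 3.30 (the whole table: 30.6% higher, 31% lower, median -0.06). The list was drawn from known plasma cell genes, so its direction is not independent of the sort. Prdm1, which encodes the repressor BLIMP1, had 292, 379, 299 and 351 CPM in PC, against 0.459, 12.5, 0.642 and 13.6 CPM in DZ. The DZ values fell into a low and a higher pair, and every PC value was above both (log2 fold change 5.67, SE 0.51, adjusted p = 3.75e-07; 6.40 without DZ replicate 4). Irf4 had 847, 871, 895 and 1000.4 CPM in PC, against 12.8, 21.9, 46.8 and 63.5 CPM in DZ (log2 fold change 4.64, SE 0.36, adjusted p = 7.44e-08). Xbp1, the driver of the secretory programme, was measurable in DZ already: it had 3375, 4044, 3843 and 3744 CPM in PC, against 339, 248, 397 and 323 CPM in DZ (log2 fold change 3.52, SE 0.14, adjusted p = 1.38e-10). The surface receptor genes Cd28 (7.18, and 8.15 without DZ replicate 3), Cd93 (4.84, and 5.80 without DZ replicate 3) and Slamf7 (2.17) rose too. The 2 members that fell were Gpr137b (-2.61) and the zinc finger gene Zbtb20, whose 717, 471, 549.7 and 594 CPM in PC stood against 764, 980.0, 801 and 827 CPM in DZ (-0.53). Cd38 was the only tested member that did not pass (0.56, SE 0.32, adjusted p = 0.141), and it passed without DZ replicate 4 (1.02, adjusted p = 0.00218).

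**Figure D1:**
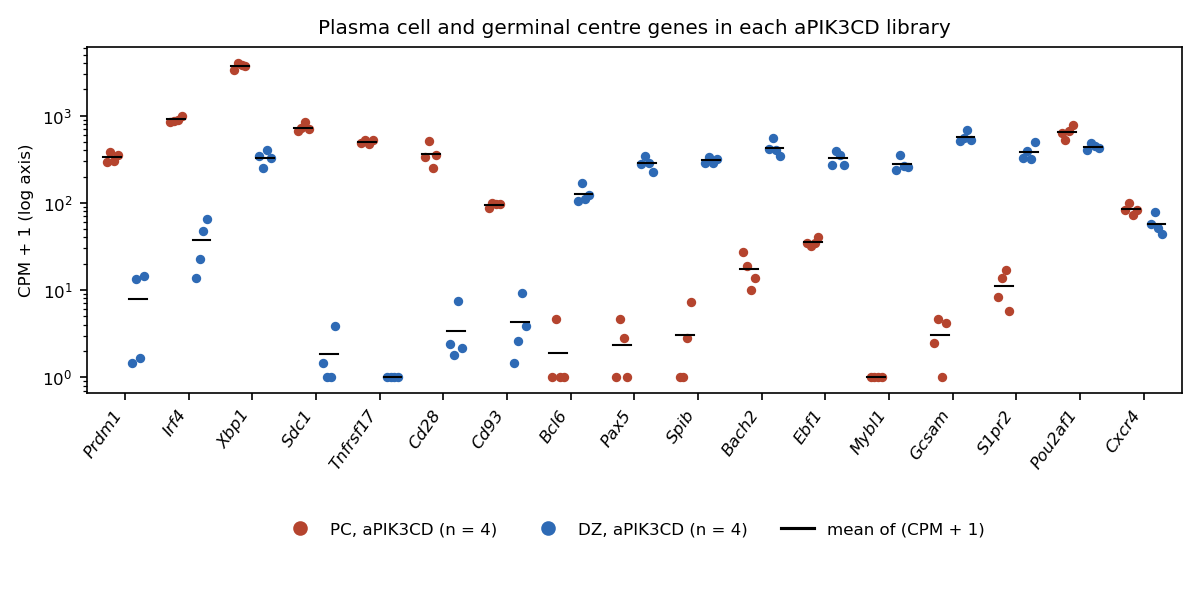
CPM plus 1 (log axis) of 17 plasma cell and germinal centre genes in each aPIK3CD library; each point is 1 library, with PC in red left of DZ in blue, and the black line is the mean of 4. Mybl1 lies at the bottom of the axis in all 4 PC libraries, Tnfrsf17 in all 4 DZ libraries, and Cxcr4 and Pou2af1 differ little.

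The B cell and germinal centre regulators fell as a group: 29 of 38 tested members were lower in PC, 1 was higher and 8 did not pass, with a median log2 fold change of -1.27. Pax5, which holds B cell identity, had 0, 3.61, 1.79 and 0 CPM in PC, against 279, 341, 285 and 226 CPM in DZ (3 counts in PC, ratio 226, 95% counting interval 77.2 to 1097). Bcl6, the master repressor of the germinal centre, had 0, 3.61, 0 and 0 CPM in PC, against 104, 168, 111 and 122 CPM in DZ (2 counts in PC, ratio 149, interval 41.2 to 1234). Spib, an ETS factor of B cells, had 0, 0, 1.79 and 6.33 CPM in PC, against 283, 331, 288 and 319 CPM in DZ (log2 fold change -7.14, and -8.87 without PC replicate 4). These 3 regulators were near 0 in every PC library.

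Other factors fell without vanishing. Bach2, which restrains plasma cell differentiation, had 26.0, 18.0, 8.95 and 12.7 CPM in PC, against 409.8, 548, 399 and 341 CPM in DZ (log2 fold change -4.66, SE 0.26). Ebf1, a factor that specifies the B lineage, had 33.2, 30.7, 34.0 and 39.6 CPM in PC, against 272, 394, 351 and 274 CPM in DZ (-3.22, SE 0.19). Foxo1, which the dark zone programme requires, had 104, 137, 154 and 174 CPM in PC, against 309, 401, 352 and 319.7 CPM in DZ (-1.28, SE 0.17, adjusted p = 1.44e-05). The member that rose was Pou2af1, the B cell coactivator OCA-B, with 624, 530.1, 664 and 777 CPM in PC against 403, 478, 449.8 and 423 CPM in DZ (0.57, adjusted p = 0.00162).

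Immunoglobulin genes took a larger share of the PC libraries, as given above, and nearly all of them were higher in PC. Of 139 tested variable segments 135 were higher in PC and none was lower, with a median log2 fold change of 4.88. A segment could pass the count filter through the PC libraries alone, so this count and median may be partly set by the filter. Reads of near-identical segments may be split or lost by the counting, so single segments are uncertain. Of 12 tested members of the constant gene list, which includes the joining chain, 11 were higher and 1 lower. Igha, the IgA heavy chain, had 2873, 3826, 3352 and 3107 CPM in PC, against 39.0, 68.9, 36.6 and 31.2 CPM in DZ (log2 fold change 6.24, SE 0.22, adjusted p = 1.04e-10). Ighm, the IgM heavy chain, had 5002, 6165, 6133 and 5515 CPM in PC, against 1351, 1746, 1662 and 1565 CPM in DZ (1.85). Igkc, the kappa light chain, had 1509, 1866, 1853 and 1649 CPM in PC, against 441, 708, 616 and 523 CPM in DZ (1.59). Jchain, which joins IgM and IgA into polymers, had 4242, 5132, 4903 and 4416 CPM in PC, against 667, 870.5, 825 and 605 CPM in DZ (2.66).

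The IgG heavy chain gene Ighg2c varied widely between libraries. Ighg2c had 1969.9, 359, 186 and 2938 CPM in PC, against 5.97, 9.39, 68.0 and 202 CPM in DZ; PC replicates 1 and 4 were far above PC replicates 2 and 3, and PC replicate 3 lay below the highest DZ library (4.25, SE 0.97, adjusted p = 0.00174; 3.54 without PC replicate 4 and 5.62 without DZ replicate 4). Ighd, the IgD heavy chain of naive B cells, was the member that fell, with 30.4, 0, 5.37 and 3.17 CPM in PC against 194, 297, 259 and 303 CPM in DZ (-4.64, and -6.48 without PC replicate 1).

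The folds of these highly counted genes may be understated. Counts stayed near or below 2 per exonic base in every library (highest 2.07 in PC and 1.81 in DZ), and 96 genes exceeded 1 per base in some PC library against 14 in some DZ library. A correction that assumes each start position on each strand was counted once gave log2 fold changes of 2.49 for Ighm, 2.26 for Igkc, 3.01 for Jchain and 6.55 for Igha. No source used here says whether duplicate reads were removed, so the deposited values are kept as the main ones, and the cause of the bound was not tested.

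**Figure D2:**
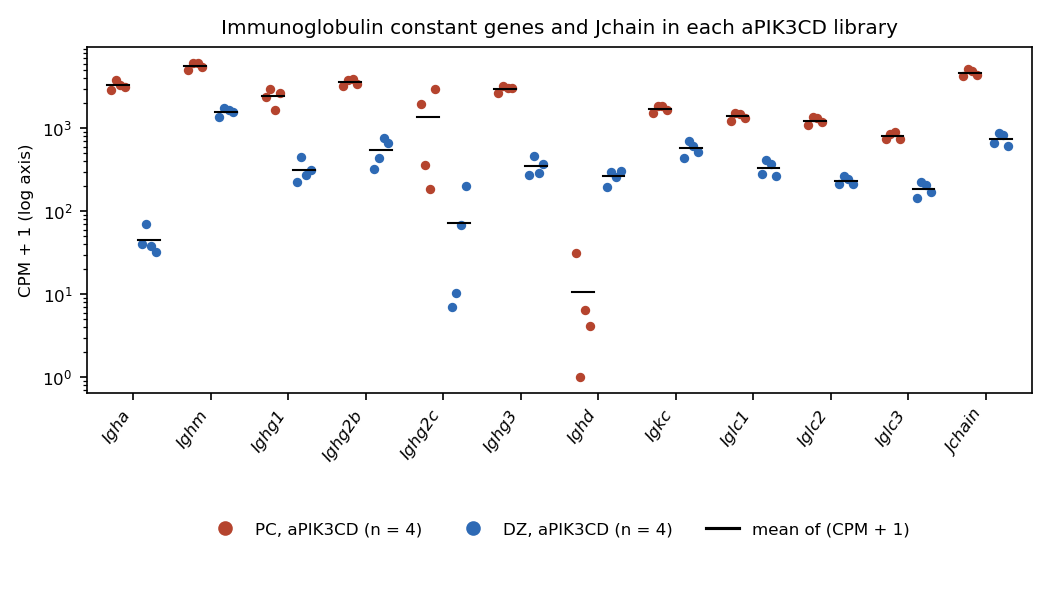
CPM plus 1 (log axis) of the immunoglobulin constant genes and Jchain in each aPIK3CD library; each point is 1 library, PC in red left of DZ in blue, and the black line is the mean of 4. Every gene drawn except Ighd is higher in PC, and Ighg2c is widely spread in both populations.

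The ER folding genes rose together. Of 42 tested members 38 were higher in PC, none was lower and 4 did not pass, with a median log2 fold change of 2.63. Creld2, an ER stress-induced folding factor, had the smallest p of all genes other than immunoglobulin segments: 2093, 2131, 2165 and 2135 CPM in PC, against 126, 149, 157 and 148 CPM in DZ (log2 fold change 3.88, SE 0.11, adjusted p = 3.09e-11). Dnajc3, a cochaperone of BiP, had 2018, 1895, 2011 and 2044 CPM in PC, against 201, 167, 176 and 198 CPM in DZ (3.42, SE 0.11). Hspa5, which encodes BiP itself, had 3804, 3851, 3725 and 3666 CPM in PC, against 599, 575, 564 and 727 CPM in DZ (2.61, SE 0.10).

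Hsp90b1, the ER chaperone GRP94, averaged 3542 ± 175 CPM in PC and 383 ± 57.0 CPM in DZ (SD, n = 4 each; log2 fold change 3.21). The disulfide isomerase gene Txndc5 (3.16) and Sdf2l1, which keeps BiP cycling (3.59), moved alike. Of the stress sensors, Ern1, which encodes the XBP1-splicing kinase IRE1alpha, had 159, 133, 183 and 141 CPM in PC, against 1.84, 5.48, 0.642 and 1.13 CPM in DZ (6.13, and 6.80 without DZ replicate 2), and Atf6 was also higher (2.42). Eif2ak3, which encodes the sensor PERK, had 189, 105, 107 and 125 CPM in PC, against 144, 155, 133 and 147 CPM in DZ, overlapping groups that did not pass (-0.13, SE 0.19, adjusted p = 0.57).

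XBP1 and ATF6 are known to act through the ER stress response element (ERSE), CCAAT and CCACG set 9 bases apart. Promoters that hold it are shown for 3 of these genes and for Derl3, an ER-associated degradation gene. They do not stand for all genes that rose: the ERSE was not found for Sdf2l1, or for Sel1l and Edem1, described below. It was found for Syvn1, which did not pass. RefSeq promoters (GRCm38.p6, 250 bases before to 50 after the start) were matched by symbol to 7190 of the 9289 genes tested. The ERSE letters, searched on both strands, occurred in 7 of the 35 matched ER folding genes (20%), against 0.167% of all matched genes tested. With the shorter ERSE-II (ATTGG and CCACG set 1 base apart) and the UPRE core (TGACGTGG) the share was 28.6%, against 1.45% of all. Among all matched genes called higher in PC the ERSE was rare, in 8 of 2096 (0.382%), against 2 of 2869 genes not called (0.0697%). These shares rest on few genes: 12 matched genes tested held the ERSE, and 7 of them were in the ER folding list. Capitals mark the ERSE match, read as its reverse complement where it begins with CGTGG:
Creld2 promoter, chr15:88819396-88819695, plus strand: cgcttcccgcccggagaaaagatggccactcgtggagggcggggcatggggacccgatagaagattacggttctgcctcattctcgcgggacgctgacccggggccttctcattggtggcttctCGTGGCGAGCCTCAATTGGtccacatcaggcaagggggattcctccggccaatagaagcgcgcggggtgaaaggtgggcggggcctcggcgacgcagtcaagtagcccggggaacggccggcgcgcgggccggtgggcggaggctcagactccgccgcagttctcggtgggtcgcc
Hspa5 promoter, chr2:34771840-34772139, plus strand: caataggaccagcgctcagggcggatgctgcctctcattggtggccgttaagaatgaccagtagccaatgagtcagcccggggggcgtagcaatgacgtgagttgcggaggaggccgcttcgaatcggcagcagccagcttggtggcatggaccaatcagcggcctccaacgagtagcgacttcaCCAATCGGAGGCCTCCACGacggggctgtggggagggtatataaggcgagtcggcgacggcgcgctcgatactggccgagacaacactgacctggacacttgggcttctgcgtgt
Hsp90b1 promoter, chr10:86705395-86705694, minus strand: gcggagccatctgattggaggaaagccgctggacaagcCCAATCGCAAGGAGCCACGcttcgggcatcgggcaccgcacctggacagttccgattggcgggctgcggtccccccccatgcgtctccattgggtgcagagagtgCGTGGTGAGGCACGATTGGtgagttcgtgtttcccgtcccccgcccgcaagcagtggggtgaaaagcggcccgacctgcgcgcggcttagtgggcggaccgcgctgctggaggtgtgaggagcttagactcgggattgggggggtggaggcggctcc
Derl3 promoter, chr10:75893148-75893447, plus strand: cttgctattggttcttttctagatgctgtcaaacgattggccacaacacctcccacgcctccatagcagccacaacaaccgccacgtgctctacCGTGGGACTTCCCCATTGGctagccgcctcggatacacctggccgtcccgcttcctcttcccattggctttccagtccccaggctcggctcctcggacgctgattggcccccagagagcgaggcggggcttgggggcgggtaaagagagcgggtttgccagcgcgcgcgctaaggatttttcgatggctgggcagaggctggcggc
Hsp90b1 holds the element on both strands. A match is a description of these letters and not a measured binding site, and the ERSE contains the CCAAT box searched for below.

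The rest of the secretory route followed the folding genes. ER-associated degradation, which retrieves and destroys misfolded proteins, had 27 of 33 tested members higher and none lower (median 1.63). Derl3, a channel component of that route whose promoter is shown above, had 1522, 1562, 1467 and 1414 CPM in PC, against 35.8, 21.1, 35.9 and 40.8 CPM in DZ (log2 fold change 5.46, SE 0.17, adjusted p = 5.84e-11). Its adaptor gene Sel1l (3.44) and the mannosidase-like gene Edem1 (3.17) rose, while the ligase gene Syvn1, the partner of SEL1L, did not pass (367, 299, 410.1 and 272 CPM in PC, against 211, 281, 231 and 321 CPM in DZ, adjusted p = 0.0735); it passed without PC replicate 4 (0.0437) or DZ replicate 4 (0.0286).

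The translocon, which threads new proteins into the ER, had 28 of 32 tested members higher and none lower (median 1.79). Ssr4, a subunit of the translocon-associated complex, had 1137, 1215, 1219.5 and 1178 CPM in PC, against 117, 143, 146 and 131 CPM in DZ (3.14, SE 0.12). The signal peptidase genes Sec11c (2.49) and Spcs2 (2.59) rose with it. Of the N-glycosylation genes 42 of 52 were higher and 2 lower (median 1.82), among them the oligosaccharyltransferase subunits Rpn1 (2.57) and Ddost (3.31). Of the ER to Golgi transport genes 56 of 61 were higher and none lower (median 1.74). The cargo receptor gene Surf4 had 1062, 1161, 1153 and 1026 CPM in PC, against 123, 86.1, 82.8 and 116 CPM in DZ (3.42, SE 0.15). Lman1, the cargo receptor ERGIC-53 (2.99), and Tmed10 (2.88) also rose; Kdelr3, a retrieval receptor, had 1 count in DZ (ratio 504, 95% counting interval 89.2 to 19998).

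ATF4 drives amino acid import and synthesis when the ER or the amino acid supply is under load. Of 37 tested members of that list, which holds tRNA synthetases too, 32 were higher in PC, none was lower and 5 did not pass (median 1.89). Slc3a2, the heavy chain of the CD98 amino acid transporter, had 2619, 2598, 2532 and 2976 CPM in PC, against 151, 91.6, 157 and 141 CPM in DZ (log2 fold change 4.30, SE 0.16, adjusted p = 1.17e-10). Pycr1, which makes proline, had 702, 759, 826 and 853 CPM in PC, against 1.38, 3.91, 10.3 and 7.94 CPM in DZ (7.08, SE 0.32). Asns, asparagine synthetase (3.51), Herpud1, an ER stress gene (3.02), and Ppp1r15a, the phosphatase subunit that reverses the translation block (3.80), rose as well.

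Cell division genes showed the reverse. Of 80 tested G2/M and mitosis genes 79 were lower in PC and none was higher, with a median log2 fold change of -3.98. Cenpe, a kinetochore motor, had 15.9, 12.6, 10.7 and 6.33 CPM in PC, against 788, 779, 748 and 671 CPM in DZ (log2 fold change -6.01, SE 0.20, adjusted p = 6.67e-11). Cenpf, another kinetochore protein, had 10.1, 5.41, 3.58 and 3.17 CPM in PC, against 520.4, 524, 510.2 and 425 CPM in DZ (-6.41, SE 0.25). Top2a, which untangles chromosomes, had 14.5, 45.1, 12.5 and 12.7 CPM in PC, against 840.2, 1069, 887 and 903 CPM in DZ (-5.47, and -6.12 without PC replicate 2); PC replicate 2 was the highest of its group and still far under DZ. The proliferation marker Mki67 kept a measurable level: 159, 124, 87.7 and 173 CPM in PC, against 1057, 1194, 1063 and 1139 CPM in DZ (-3.03, SE 0.17, adjusted p = 4.74e-09). The condensin gene Ncapd2 (-4.57), the centromeric histone Cenpa (-2.94) and the spindle gene Hmmr (-4.90) fell too.

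Of 57 replication and G1/S genes 54 were lower in PC and none was higher (median -2.89). The clamp loader gene Rfc1 had 65.0, 75.7, 53.7 and 36.4 CPM in PC, against 695, 755, 763 and 738 CPM in DZ (log2 fold change -3.68, SE 0.18). The helicase subunit Mcm3 had 18.8, 28.8, 7.16 and 22.2 CPM in PC, against 514, 424, 570.5 and 474 CPM in DZ (-4.68, SE 0.25). Clspn, a replication checkpoint adaptor (-5.67), Uhrf1, which guides maintenance methylation (-5.91), the methyltransferase Dnmt1 (-3.44) and the ligase Lig1 (-3.96) fell without overlap.

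Genes of G2 and mitosis are known to share a cell cycle homology region (CHR), TTTGAA or TTCGAA, near CCAAT boxes. Among the 67 matched G2/M genes, 70.1% held a CHR on either strand and 58.2% held both a CHR and a CCAAT box, against 16.9% and 7.20% of all matched genes tested. The E2F letters TTTGGCGC or TTTCCCGC occurred in 30.4% of the 46 matched replication genes, against 3.95% of all. Among all matched genes called lower in PC the shares were smaller: 20.3% held a CHR and 6.11% the E2F letters, against 15.2% and 3.45% of genes not called. These 3 promoters are shown because they carry both elements and lie before mitotic genes that were lower in PC; capitals mark each CHR and CCAAT box read on the gene's strand:
Cdc20 promoter, chr4:118437294-118437593, minus strand: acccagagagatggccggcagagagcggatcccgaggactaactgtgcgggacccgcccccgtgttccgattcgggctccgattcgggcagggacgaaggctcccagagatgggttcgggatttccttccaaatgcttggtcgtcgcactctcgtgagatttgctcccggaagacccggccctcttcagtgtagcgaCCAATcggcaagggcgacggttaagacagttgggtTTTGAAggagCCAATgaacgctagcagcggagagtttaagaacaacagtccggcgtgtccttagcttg
Ccnb2 promoter, chr9:70421505-70421804, minus strand: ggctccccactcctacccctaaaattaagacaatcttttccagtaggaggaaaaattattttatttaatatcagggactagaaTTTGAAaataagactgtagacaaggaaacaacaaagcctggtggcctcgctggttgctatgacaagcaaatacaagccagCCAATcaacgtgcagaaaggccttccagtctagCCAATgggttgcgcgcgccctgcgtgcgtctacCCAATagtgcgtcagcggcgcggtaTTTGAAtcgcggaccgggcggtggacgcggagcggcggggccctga
Aurka promoter, chr2:172370521-172370820, minus strand: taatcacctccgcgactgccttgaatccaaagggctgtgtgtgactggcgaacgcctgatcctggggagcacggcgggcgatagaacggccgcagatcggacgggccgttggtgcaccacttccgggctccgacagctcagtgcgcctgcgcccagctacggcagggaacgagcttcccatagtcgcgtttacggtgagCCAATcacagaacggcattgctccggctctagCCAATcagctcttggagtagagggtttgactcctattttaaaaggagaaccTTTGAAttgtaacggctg
Cdc20, which activates the anaphase-promoting complex, had 44.8, 41.5, 16.1 and 22.2 CPM in PC, against 325, 258, 298 and 296 CPM in DZ (log2 fold change -3.23). Ccnb2, a mitotic cyclin, had 39.0, 39.7, 12.5 and 33.2 CPM in PC, against 441, 374, 461 and 342 CPM in DZ (-3.68). Aurka, a spindle kinase, had 11.6, 5.41, 5.37 and 11.1 CPM in PC, against 255, 187, 196 and 245 CPM in DZ (-4.67). No PC library reached the lowest DZ library for any of these 3 genes.

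**Figure D3:**
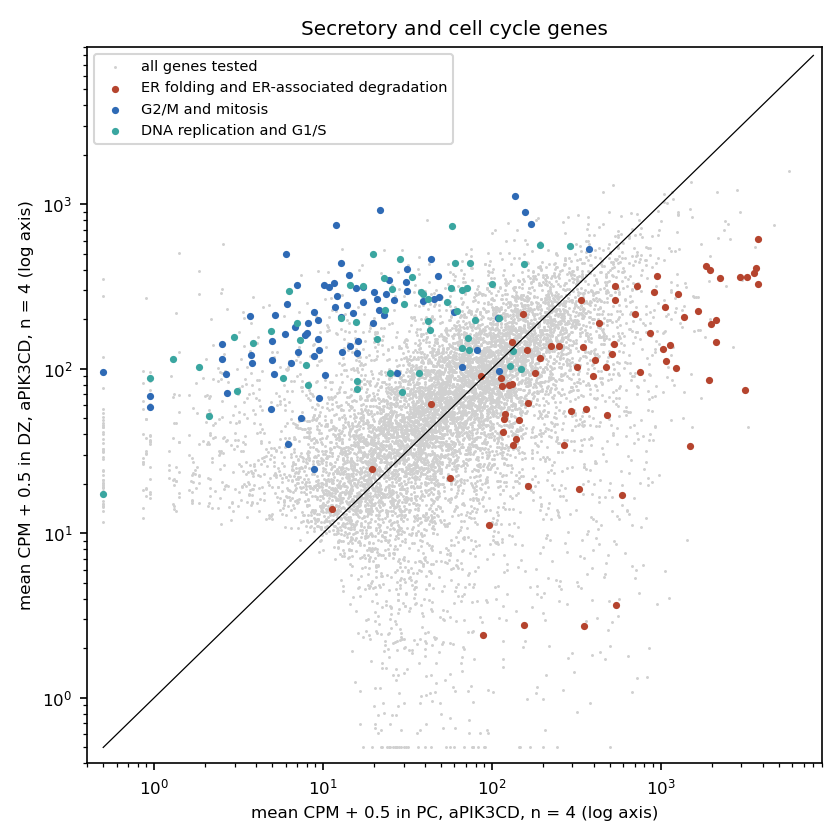
Mean CPM plus 0.5 of each gene tested in aPIK3CD PC (horizontal, log axis) and aPIK3CD DZ (vertical, log axis), n = 4 each; the line marks equal levels. ER folding and degradation genes (red) lie mostly below the line, G2/M genes (blue) and replication genes (teal) above it.

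Of 28 cell cycle inhibitors and exit genes 9 were higher, 11 lower and 8 did not pass, near the shares of all genes (30.6% higher, 31% lower). Ccnd2, a D-type cyclin, was counted in this list and not among the replication and G1/S genes above. It had 1006, 869, 743 and 1070.0 CPM in PC, against 29.4, 21.1, 50.7 and 77.1 CPM in DZ (log2 fold change 4.36, SE 0.31, adjusted p = 3.54e-08). Its partner kinase gene Cdk6 moved the other way, with 8.67, 12.6, 5.37 and 6.33 CPM in PC against 118, 150.3, 132 and 153 CPM in DZ (-4.06, SE 0.27). The p53 target Trp53inp1 rose (3.22), and Myc did not pass (28.9, 50.5, 53.7 and 55.4 CPM in PC, against 44.1, 32.9, 60.3 and 101 CPM in DZ, adjusted p = 0.394).

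Genes of somatic hypermutation and DNA repair fell, 44 of 55 lower and 1 higher (median -1.78). The mismatch glycosylase Mbd4 had 43.4, 32.5, 35.8 and 34.8 CPM in PC, against 389, 409, 356 and 348 CPM in DZ (log2 fold change -3.35, SE 0.16, adjusted p = 8.03e-10). The break repair scaffold Xrcc1 (-2.46) and the recombination motor Rad54l (-5.23) fell too. Of 39 tested chromatin regulators 27 were lower and 3 higher (median -1.20). Ezh2, the Polycomb methyltransferase that germinal centres require, had 28.9, 52.3, 41.2 and 44.3 CPM in PC, against 322, 374, 324 and 323 CPM in DZ (-3.02, SE 0.18). Hells, a chromatin remodeller (-5.43), and Nsd2, a histone H3 lysine methyltransferase (-3.79), fell as well.

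Germinal centre surface and signalling genes split 26 lower to 6 higher among 32 tested (median -2.70). S1pr2, the receptor that confines B cells to the germinal centre, had 7.23, 12.6, 16.1 and 4.75 CPM in PC, against 328, 388, 316 and 503 CPM in DZ (log2 fold change -5.26, SE 0.28). Rgs13, a regulator of chemokine receptor signalling, had 0, 3.61, 1.79 and 0 CPM in PC, against 430.0, 431, 455 and 258 CPM in DZ (3 counts in PC, ratio 318, 95% counting interval 109 to 1542). The follicle-homing receptor Cxcr5 had 2.89, 5.41, 0 and 4.75 CPM in PC, against 204, 178, 212 and 233 CPM in DZ (-5.93). Cxcr4, which draws cells to the dark zone and plasma cells to their niches, had 80.9, 99.2, 71.6 and 80.7 CPM in PC, against 56.0, 76.7, 50.1 and 43.1 CPM in DZ; PC replicate 3 lay below DZ replicate 2, and the small rise (0.56, SE 0.22, adjusted p = 0.0411) was lost when PC replicate 1 (adjusted p = 0.0716), PC replicate 2 (0.129), PC replicate 4 (0.0719), DZ replicate 1 (0.0712), DZ replicate 3 (0.0922) or DZ replicate 4 (0.0984) was left out.

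Of 28 receptors for chemokines, S1P and positioning, 14 were higher (50%) and 8 lower (28.6%), against 30.6% and 31% of all genes (median 0.58). Ccr10, a receptor of IgA plasma cells, had 69.4, 95.6, 48.3 and 57.0 CPM in PC and no count in DZ, at least 152-fold higher. Ccr9, the gut-homing receptor, had 24.6, 25.2, 12.5 and 20.6 CPM in PC, against 0, 0, 0 and 1.13 CPM in DZ (2 counts in DZ, ratio 70.9, interval 18.7 to 602). Selplg, the ligand of P-selectin, had 791, 891, 722 and 877 CPM in PC, against 30.7, 8.61, 8.34 and 58.4 CPM in DZ (log2 fold change 4.90, and 5.57 without DZ replicate 4). The retention receptor Cd69 had 379, 557, 371 and 362 CPM in PC, against 81.2, 52.4, 107 and 23.8 CPM in DZ (2.65).

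Of 24 TNF and cytokine receptor genes 15 were higher (62.5%) and 6 lower (25%), against 30.6% and 31% of all genes (median 1.75). Of the 3 receptors for the survival factors BAFF and APRIL, Tnfrsf17 is given above, Tnfrsf13b (TACI) had 1015, 1246, 1322 and 1246 CPM in PC against 246, 180.0, 182 and 278 CPM in DZ (2.44, SE 0.16), and Tnfrsf13c (the BAFF receptor) had 478, 496, 499.6 and 526 CPM in PC against 533, 505, 488 and 495 CPM in DZ and did not pass (-0.02, SE 0.10). The interferon receptor gene Ifnar2 (4.38) and the cytokine receptor gene Il13ra1 (7.90, and 9.79 without DZ replicate 1) rose, and Il21r, the receptor for the T follicular helper cytokine IL-21, fell (-3.83). In the BCL2 and death receptor list 8 of 22 were higher and 7 lower, near the shares of all genes; 5 were higher without DZ replicate 2 or without DZ replicate 3, and the median of 0.30 was -0.05 without DZ replicate 3. Bcl2, which blocks apoptosis, had 123, 184, 115 and 123 CPM in PC, against 2.29, 11.7, 6.42 and 11.9 CPM in DZ (4.11, SE 0.37, adjusted p = 3.93e-07). The death receptor gene Fas had 46.2, 52.3, 34.0 and 52.2 CPM in PC, against 320.3, 304, 352 and 231 CPM in DZ (-2.70), and Mcl1, which plasma cells need to survive, was modestly higher (0.93).

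B cell receptor signalling genes mostly fell, 24 of 34 lower and 5 higher (median -1.0). The phosphatase gene Ptprc (CD45) had 529, 471, 417 and 388 CPM in PC, against 1170.2, 1308, 1187 and 1071 CPM in DZ (log2 fold change -1.39, SE 0.12), and the adaptor gene Bank1 fell as well (-1.91). Vav3, an exchange factor, was the reverse: 39.0, 34.3, 30.4 and 44.3 CPM in PC against 1 count in DZ (ratio 253, 95% counting interval 44.3 to 10108). In the receptor complex 9 of 18 were lower (50%) and 7 higher (38.9%), against 31% and 30.6% of all genes. The coreceptor gene Cd81, a tetraspanin, had 1061, 1242, 1196 and 1111 CPM in PC, against 323, 265, 284 and 291 CPM in DZ (1.99). The signalling chains did not fall: Cd79a (1.03) and Cd79b (0.55) were higher. The inhibitory lectin genes Siglecg (-4.52) and Cd72 (-5.07) fell with Cd22.

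The MHC class II pathway, which presents antigen to T cells, had 13 of 19 genes lower (68.4%) and 3 higher (15.8%), against 31% and 30.6% of all genes (median -1.17). Ciita, its transactivator, had 10.1, 0, 0 and 1.58 CPM in PC, against 196, 223, 173 and 222 CPM in DZ (log2 fold change -5.92, SE 0.45, and -8.25 without PC replicate 1). H2-DMb2, a peptide exchange subunit, had 5.78, 3.61, 8.95 and 9.50 CPM in PC, against 375, 375, 388 and 345 CPM in DZ (-5.71, SE 0.22). The exchange inhibitor gene H2-Ob fell less (-2.31). The class II beta chain gene H2-Ab1 had 1150.5, 1035, 1309 and 1255 CPM in PC, against 891, 1238, 1165 and 981 CPM in DZ, overlapping groups that did not pass (0.15, SE 0.12, adjusted p = 0.295). The invariant chain gene Cd74 (1.21) and the protease gene that trims it, Ctss (2.49), were higher in PC.

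The PI3K, AKT and mTOR list held 10 higher, 12 lower and 21 that did not pass among 43 tested (median -0.12), shares below those of all genes. Besides Pik3cd, the lipid phosphatase gene Inpp5d (SHIP1) had 99.7, 37.9, 89.5 and 111 CPM in PC, against 249.6, 268, 323 and 315 CPM in DZ (log2 fold change -1.76, SE 0.24). Akt1 fell (-1.41), and the phosphatase gene Inpp4b (1.51) and the catalytic subunit gene Pik3cg (1.20) rose. Eif4ebp1, a translation repressor that mTOR inactivates, had 266, 249, 304 and 377 CPM in PC, against 35.8, 47.8, 60.3 and 24.4 CPM in DZ (2.84, SE 0.25, adjusted p = 2.55e-07), while the mTOR brakes Sesn3 (-3.22) and Depdc5 (-3.15) fell. Of 27 FOXO factors and targets 15 were higher (55.6%) and 6 lower (22.2%), against 30.6% and 31% of all genes. The median of this list was 0.56, and ran from 0.49 with upper quartile scaling to 0.94 in a single fit over all groups. Txnip, which limits glucose uptake, had 469.7, 469, 599.9 and 560.4 CPM in PC, against 93.6, 94.7, 105 and 105 CPM in DZ (2.4), and Trib1 rose too (4.47, and 5.54 without DZ replicate 4).

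Organelle and housekeeping groups differed in how far they moved. Of 55 autophagy and lysosome genes 36 were higher (65.5%) and 7 lower (12.7%), against 30.6% and 31% of all genes (median 1.27). Among those higher were the protease gene Ctsb (3.54), the cholesterol carrier gene Npc2 (3.57) and the membrane protein gene Lamp2 (3.02). Of 73 nuclear oxidative phosphorylation genes 55 were higher and 1 lower, but the median was only 0.52; Atp5b, a subunit of ATP synthase, had 1428, 1484, 1520.3 and 1539 CPM in PC, against 915, 945, 953 and 902 CPM in DZ (0.68, SE 0.09). Of 39 proteasome genes 22 were higher (56.4%) and 1 lower (2.56%), none by as much as 2-fold. Glycolysis genes (6 higher and 7 lower of 23) and cytosolic ribosomal protein genes (12 higher and 8 lower of 67) showed shares below those of all genes. Without PC replicate 3 only 3 glycolysis genes were higher, and without replicate 1 of both populations 6 ribosomal protein genes were higher; ribosomal protein genes have many near-identical copies whose reads the counting may lose. Of 48 MYC target and ribosome biogenesis genes 24 were lower (50%) and 5 higher (10.4%), with a median of -0.54, and the spermidine synthase gene Srm was the largest exception (2.15). The sterol and phospholipid list split into 11 higher and 19 lower of 46: Hmgcs1, of the mevalonate pathway, had 33.2, 9.02, 7.16 and 4.75 CPM in PC against 117, 144, 144 and 112 CPM in DZ (-3.18, and -4.22 without PC replicate 1), while Chpt1, which makes phosphatidylcholine, had 73.7, 132, 118 and 88.6 CPM in PC against 6.88, 18.8, 6.42 and 7.37 CPM in DZ (3.42).

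Of 26 factors known to act on immunoglobulin mRNA processing, 14 were lower in PC (53.8%) and 4 higher (15.4%), against 31% and 30.6% of all genes (median -0.47). Ell2, the elongation factor that favours secreted heavy chain mRNA, had 589.7, 588, 548 and 543 CPM in PC, against 110.1, 124, 104 and 90.7 CPM in DZ (log2 fold change 2.41, SE 0.13, adjusted p = 3.13e-09). The cleavage factor gene Cpsf2 fell (-2.46). Of 20 toll-like receptor and innate sensing genes 9 were higher (45%) and 4 lower (20%), against 30.6% and 31% of all genes (median 0.24, and -0.07 without DZ replicate 2). Of 9 mitochondrially encoded transcripts 3 were higher and 1 lower (median 0.15), a share of higher genes near that of all genes, and with the correction for counts per base 1 was higher and 3 lower (median -0.29).

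**Figure D4:**
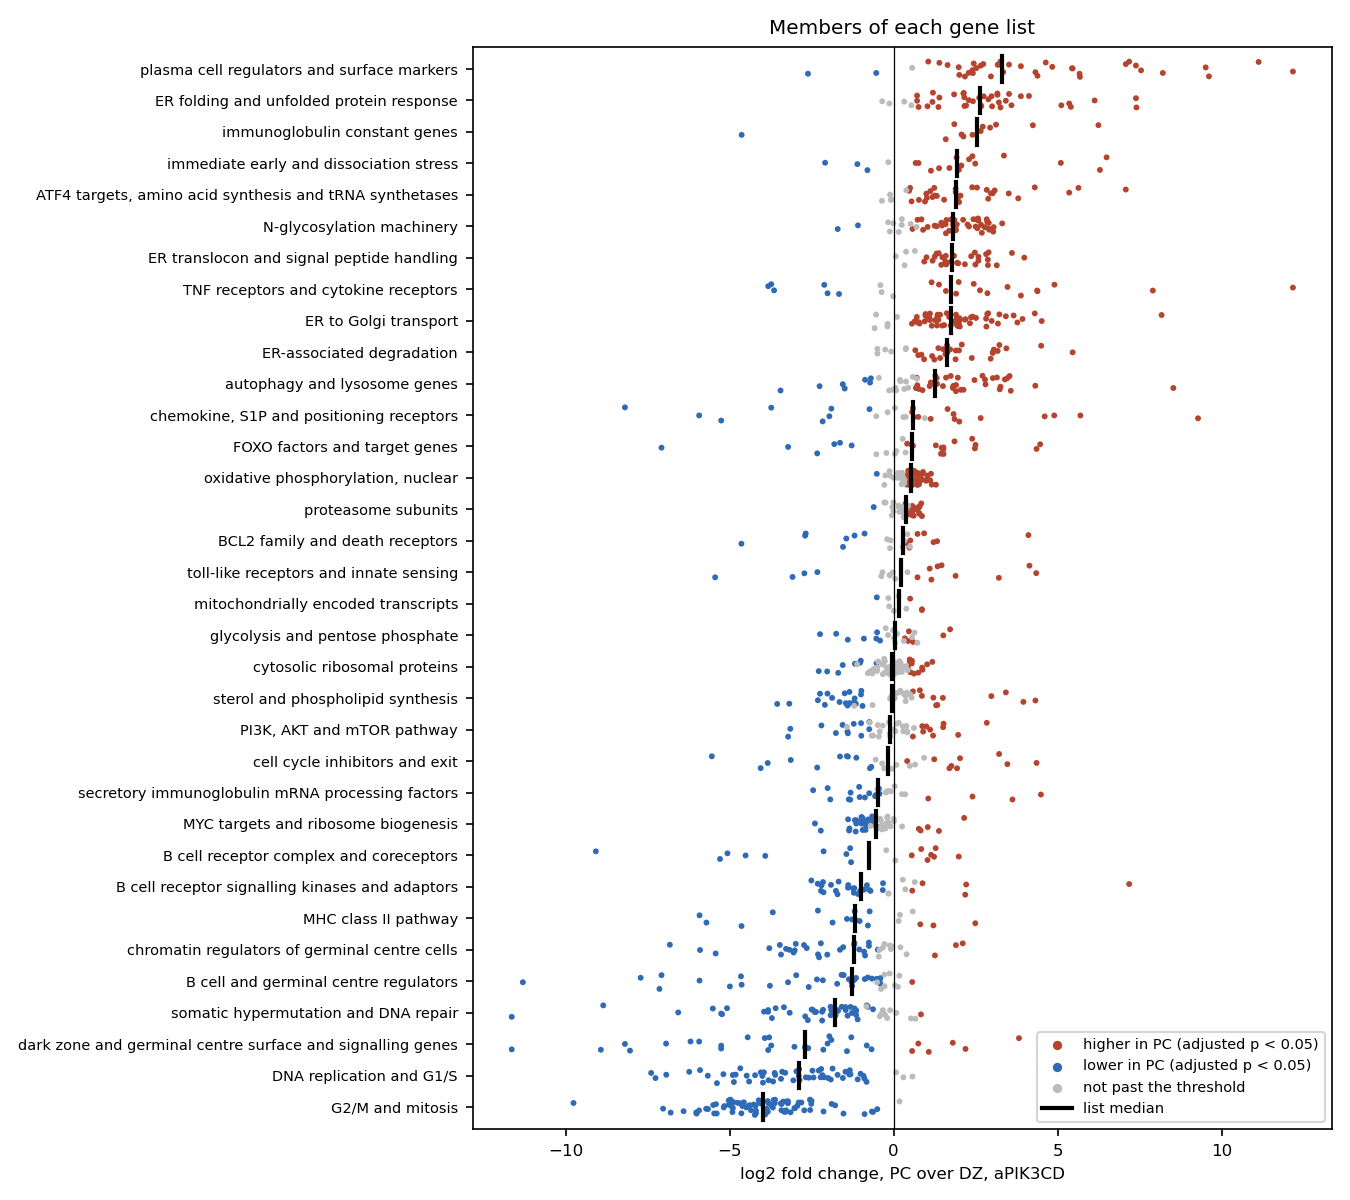
Log2 fold change of PC over DZ in aPIK3CD mice for each tested member of the 34 gene lists, ordered by list median (black bar); red and blue points passed an adjusted p of 0.05 and grey points did not. Secretory lists lie to the right of 0 and replication, mitosis and germinal centre lists to the left, with the housekeeping lists near 0.

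Further sets of values move with the population and bear on several groups above. Immediate early genes, which cell isolation can induce, were 15 higher (78.9%) and 3 lower (15.8%) of 19, against 30.6% and 31% of all genes (median 1.92). Fos had 1567, 1776, 1313 and 1437 CPM in PC, against 56.0, 30.5, 47.5 and 41.4 CPM in DZ (log2 fold change 5.10, SE 0.18), and Jun had 452, 454, 578 and 355 CPM in PC, against 4.59, 3.91, 2.57 and 8.50 CPM in DZ (6.49). Transcripts of other cell types also differed. Of the T cell markers 7 were tested, of which 6 were higher in PC; Cd3g had 76.6, 105, 75.2 and 53.8 CPM in PC, against 8.26, 0, 3.85 and 5.67 CPM in DZ, while Lck was lower in PC (47.7, 114, 77.0 and 88.6 CPM in PC, against 301, 250.5, 264 and 327 CPM in DZ). The 12 T cell markers summed to 376 to 586 CPM in PC and 272 to 353 CPM in DZ, and Lck made up most of the DZ sum. Among the 7 tested markers the median log2 fold change was 3.28 and the largest 8.18. A marker could pass the count filter through the PC libraries alone, so these values may be partly set by the filter. As Lck fell, the sums understate the rise of the 6 markers that were higher. Cd4, Cd8a and Cd3e stayed under 20 CPM in every library. The 13 myeloid markers summed to 235 to 664 CPM in PC and 45.9 to 114 CPM in DZ; Lyz2 had 89.6, 438, 5.37 and 448 CPM in PC against 3.21, 38.4, 0 and 7.94 CPM in DZ, Cd68 had 117, 164, 206 and 103 CPM in PC against 21.1, 18.8, 35.9 and 11.3 CPM in DZ, and Mpo had no count in any of the 8 libraries. Of 4 tested myeloid markers 2 were higher in PC and 2 did not pass. Natural killer markers, of which 1 of 2 tested was higher, summed to 39.0 to 263 CPM in PC and 3.13 to 104 CPM in DZ. The dendritic cell list, with 2 of 3 tested markers higher and 1 lower, summed to 942 to 1046 CPM in PC and 231 to 281 CPM in DZ, with Cst3 at 895, 907, 1019 and 969 CPM in PC and 167, 178, 185 and 145 CPM in DZ and no count of Clec9a. Light zone markers summed to 1414 to 1474 CPM in PC and 834 to 1154 CPM in DZ, with 1 of 5 tested higher and 3 lower, and naive B cell markers to 189 to 233 CPM in PC and 396 to 686.5 CPM in DZ, with 1 of 6 higher and 2 lower. Erythroid, platelet and stromal lists had 1, 0 and 1 tested members, none of which passed. The part of these transcripts in the results above was not tested.

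The same contrast in WT mice was used to ask which differences depend on the genotype. In a joint fit of 15 libraries, the PC to DZ contrast was called in 6207 genes in aPIK3CD mice and 5577 genes in WT mice of 9955 tested. Of these 4932 were called in both, 79.5% of the aPIK3CD calls and 88.4% of the WT calls, and 4927 had the same sign. The medians of some lists were close in both genotypes: 2.60 in aPIK3CD and 2.56 in WT for ER folding, -3.99 and -3.83 for G2/M, 3.23 and 3.52 for the plasma cell list. Others lay further apart: 1.88 in aPIK3CD and 1.30 in WT for the ATF4 list, 0.27 and -0.36 for the BCL2 list, 0.14 and 0.78 for mitochondrially encoded transcripts. The median of the gene-by-gene difference was 0.26 in the ATF4 list, -0.043 in the BCL2 list and -0.52 in the mitochondrial list. No member of these lists passed the test of the difference, so the gaps between medians are not called genotype effects. The test of the difference itself passed for 5 genes (0.0502%), with 852 genes at an unadjusted p below 0.05.

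Osbpl3, an oxysterol-binding protein gene, was lower in PC than in DZ in aPIK3CD mice (log2 fold change -2.49) and higher in WT mice (1.35). It had 7.09, 7.07, 7.01 and 7.77 CPM in aPIK3CD PC and 26.7, 60.0, 35.6 and 44.3 CPM in aPIK3CD DZ, against 72.6, 72.3, 69.7 and 43.7 CPM in WT PC and 30.4, 36.1 and 9.62 CPM in WT DZ (difference of log2 fold changes -3.85, SE 0.58, adjusted p = 0.00928). The 4 aPIK3CD PC libraries, replicate 1 included, were all far below the 4 WT PC libraries. In a single fit over all groups the adjusted p for Osbpl3 was 0.0587. Gcsam fell in both genotypes but further in aPIK3CD: 1.42, 3.54, 0 and 3.11 CPM in aPIK3CD PC and 506, 544, 684 and 513 CPM in aPIK3CD DZ, against 43.6, 21.7, 23.8 and 13.1 CPM in WT PC and 612, 642 and 536 CPM in WT DZ (difference -3.51, SE 0.54, adjusted p = 0.00928). The DZ levels of both genotypes overlapped, and the aPIK3CD PC levels lay under all WT PC levels; without aPIK3CD PC replicate 1 the adjusted p was 0.0611.

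Fcmr, the Fc receptor for IgM, differed in the other direction: 364, 484, 371 and 341 CPM in aPIK3CD PC and 461, 347, 459 and 340.0 CPM in aPIK3CD DZ, against 170.1, 130.2, 162 and 203 CPM in WT PC and 461, 383 and 423 CPM in WT DZ (difference 1.30, SE 0.23, adjusted p = 0.0346). Its adjusted p was above 0.05 without aPIK3CD PC replicate 1 (0.0619) or 2 (0.0790), without aPIK3CD DZ replicate 2 (0.0595) or 4 (0.0822), without WT PC replicate 1 (0.0898), 2 (0.0876) or 3 (0.0759), and without WT DZ replicate 1 (0.174) or 4 (0.148). The variable segments Igkv3-4 and Ighv8-8 made up the rest. Igkv3-4 had 7.09, 7.07, 22.8 and 14.0 CPM in aPIK3CD PC and 0, 23.8, 19.1 and 60.5 CPM in aPIK3CD DZ, against 950.2, 938, 757 and 856 CPM in WT PC and 28.4, 13.9 and 3.01 CPM in WT DZ (difference -6.88, adjusted p = 0.00928). Ighv8-8 had 499, 548, 476 and 482 CPM in aPIK3CD PC and 20.8, 9.23, 13.3 and 20.2 CPM in aPIK3CD DZ, against 392, 429, 261 and 650.4 CPM in WT PC and 0, 0 and 1.20 CPM in WT DZ (difference -4.69, adjusted p = 0.00928, and 0.0734 without WT DZ replicate 1). When replicate 1 of the aPIK3CD titles was counted as WT, as its genotype field reads, none of these 5 differences passed.

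The next genes by p did not pass, among them the interleukin 5 receptor gene Il5ra (difference 2.72, adjusted p = 0.14), Ctso (0.90, adjusted p = 0.153) and Spns3 (1.63, adjusted p = 0.153) on the positive side, and the calcium channel gene Itpr1 (-2.68, adjusted p = 0.176) and Cdk6 (-1.92, adjusted p = 0.201) on the negative side. The log2 fold change of Pik3cd was -1.41 in aPIK3CD and -0.69 in WT, a difference that did not pass (-0.72, SE 0.28, adjusted p = 0.462).

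**Figure D5:**
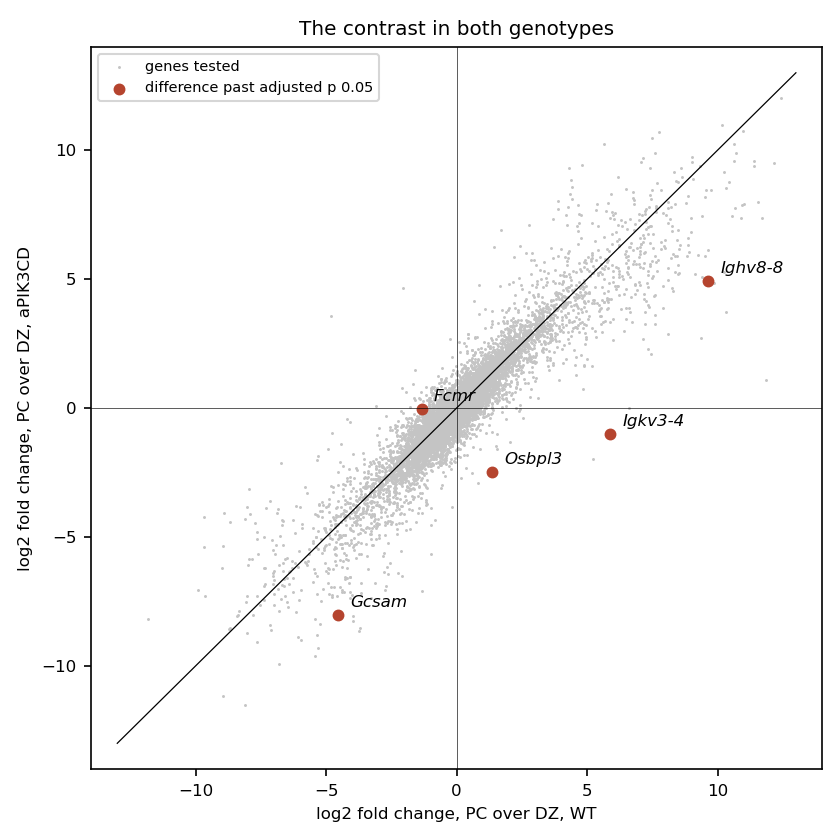
Log2 fold change of PC over DZ in aPIK3CD mice (vertical) and WT mice (horizontal) for 9955 genes; the diagonal marks equal contrasts, and the 5 genes past an adjusted p of 0.05 for the difference are named. Osbpl3 and Igkv3-4 lie on opposite sides of 0 in the 2 genotypes, and Gcsam lies further below 0 in aPIK3CD.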

How the data were processed

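RNA was measured in libraries of sorted spleen cells made with SMART-Seq v4, a full-length method that does not mark strand. The values deposited are raw gene counts in 1 table for the whole series; the authors' tools were STAR 2.4.2a, HTSeq and Picard, per the submitters' processing notes, which give no roles, and the genome build was not named in any source used here. Groups followed the titles, and all columns were mapped to samples (0 columns were not used). With R 4.3.3, genes were filtered with edgeR's filterByExpr (minimum count 10, minimum total 15), scaled by TMM and tested with edgeR 4.0.16's quasi-likelihood F test, 4 PC against 4 DZ, at a Benjamini-Hochberg adjusted p below 0.05; each SE follows from the fitted change and its F statistic (change over root F). The joint fit added a population by genotype term. Where a group had no count, a fold is a bound against 3 counts over that group; with 1 to 3 counts it is a ratio with its exact 95% interval, which covers counting error only. DESeq2 1.42.0 and limma 3.58.1 were alternatives, with other scalings, filters, fits and left-out libraries. The scripts were tested on simulated data with known changes. Promoters came from RefSeq tables.

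Named by rule were Pik3cd, the 12 genes of largest fold and the 8 of smallest p in each direction (mean of at least 10 CPM, no overlap), list members of smallest p, regulators, and the genes of smallest p for the genotype difference; 3 genes are not reported here, and other named genes were chosen after their values were seen. The members and the 34 pathway and 12 marker lists were chosen with earlier results of these data known. Of 1407 list symbols, 14 were not found in the table. Deviations of same-numbered libraries from their group means were hardly correlated (between -0.0626 and 0.0247), which cannot exclude that they came from the same mouse.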

Additional observations from a re-analysis of the deposited data

Results flagged for a closer look

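Of 309 groups of 4 libraries checked with Dixon's test at its 95% critical value of 0.829, 28 held a value far from the other 3 libraries; chance gives about 1 in 20 such groups, a rate that does not apply to the 7 whose other libraries had no count (Copz2, Fndc3b, Parp8, Bcl6, Kdelr3, Ccr9 and Vav3), where 1 or 2 counts set the gap. In PC replicate 2, Hsp90b1 had 3800 CPM (others 3430 to 3470 CPM), Top2a had 45.1 CPM (others 12.5 to 14.5 CPM), Cd69 had 557 CPM (others 362 to 379 CPM), Bcl2 had 184 CPM (others 115 to 123 CPM), Bcl6 had 3.61 CPM (others 0) and Gpx3 had 52.3 CPM (others 89.5 to 95 CPM). In PC replicate 1, Ciita had 10.1 CPM, Hmgcs1 had 33.2 CPM and Spcs2 had 1510 CPM. In PC replicate 4, Atf6 had 343 CPM and Parp8 had 1.58 CPM.

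In DZ replicate 2, Kif14 had 83.8 CPM (others 39.9 to 44.9 CPM), Ezh2 had 374 CPM (others 322 to 324 CPM), Itm2b had 168 CPM (others 207 to 212 CPM), Edem1 had 292 CPM (others 375 to 386 CPM), Chpt1 had 18.8 CPM and Cd4 had 8.61 CPM. In DZ replicate 4, Rgs13 had 258 CPM (others 430 to 455 CPM), Cenpf had 425 CPM (others 510 to 524 CPM), Pon3 had 65.8 CPM, Trib1 had 23.8 CPM, Sdc1 had 2.83 CPM, Ccr9 had 1.13 CPM, and Copz2 and Vav3 each had 0.567 CPM. In DZ replicate 3, Cd28 had 6.42 CPM and Fndc3b had 1.28 CPM, and in DZ replicate 1 Kdelr3 had 0.459 CPM. None of these values crossed to the other population's range, apart from Cd4, whose groups overlap.

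The contrast of PC with DZ differed between aPIK3CD and WT mice, by the test of the difference, in 5 genes: Osbpl3 (-3.85 on the log2 scale), Gcsam (-3.51), Igkv3-4 (-6.88), Ighv8-8 (-4.69) and Fcmr (1.30).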

How the results depend on the processing

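The count of genes that passed between PC and DZ stayed within 1.5 times of 5723 in every alternative run, between 4114 (tested against a fold of 1.5) and 7020 (no filter on low counts: 3366 higher and 3654 lower). Leaving out 1 library at a time gave 5444 to 5730, and leaving out replicate 1 of both populations gave 5282. Of the values recomputed for the named genes, 3186 kept their direction and their side of the threshold, 16 lost a call (11 of them Cxcr4), 7 gained one (Syvn1 and Cd38) and 5 changed sign, none of which had passed: H2-Ab1 (-0.029 with the saturation correction), Tnfrsf13c (0.000543 without immunoglobulin and T cell receptor genes, 0.00271 without DZ replicate 1, 0.017 without replicate 1 of both populations) and Myc (0.020 without DZ replicate 4). Leaving out 1 library at a time gave -0.054 to 0.00271 for Tnfrsf13c and -0.55 to 0.020 for Myc. Over all genes, 1 that had passed changed sign with the saturation correction. The cause was not tested. The 5 genes whose contrast differed between genotypes were the least stable count: 2 with libraries thinned to the smallest total, 2 in a single fit over all groups, 46 with DESeq2's Wald test, 175 with no filter, 1 when replicate 1 of the aPIK3CD titles was counted as WT, and 3 to 8 when 1 library was left out. Whether a shared replicate number means a shared mouse is not stated, so the fit with a replicate block is given as an alternative. It called 5896 genes between PC and DZ and 4 for the genotype difference, Gcsam (adjusted p = 0.0839) and Fcmr (adjusted p = 0.149) no longer among them. In PC libraries of 652722 to 788999 counts, levels near 1 CPM rest on single counts.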
